A study of Mus musculus with 11 samples.

Results

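Yap1, its DNA-binding partners Tead1 and Tead2, the inhibitory kinase Lats2 and the target genes Ctgf, Cyr61, Ankrd1 and Amotl2 were followed through normal mouse liver development. The 8 genes are a fixed list, read from the gene name column of the array files and from the authors' gene table, and they are 8 of 27962 gene names on the array. They were chosen by name, not by their values, but with earlier results of these data known. They are covered by 12 probes, and 7 of the 8 passed the filter on dim probes. Tead1 did not.

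Liver RNA was measured on 11 two-colour Agilent arrays, with 3 embryonic arrays each for stages E14.5 and E18.5, 2 for postnatal day 5 (P5, replicates 2 and 3) and 3 for postnatal day 56 (P56). The labels and the methods write the embryonic stages as days 14 and 18. On every array the RNA of a stage carried Cy5, and purchased RNA from normal adult liver, the reference shared by all arrays, carried Cy3, with no dye swap, so a dye effect of a probe is shared by all arrays. The animals carried no transgene or treatment that the labels name, and the methods name C57BL/6 for harvested embryos.

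The labels call the source liver and the cell type hepatoblasts at E14.5, immature hepatocytes at E18.5 and hepatocytes at P5 and P56, and the protocol speaks both of whole livers and of isolated cells, so which of these an embryonic array held is not settled here. The hepatoblast markers Afp, Dlk1 and Gpc3, a list added after values were seen, averaged log2 ratios to the adult reference of 5.15, 5.76, 4.80 and 0.33 over the successive stages. Beside them, erythroid markers were high. The 10 measured averaged 3.03 at E14.5 and 3.19 at E18.5, and all 10 were above background on every array of both stages. The 11 mature hepatocyte markers averaged -3.80 at E14.5 and -1.21 at E18.5. In such RNA mixtures, fewer cells of a type and less RNA per cell cannot be told apart.

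Yap1 is the transcriptional coactivator at the end of the Hippo pathway. The kinases Stk3 and Stk4 (Mst2 and Mst1) with the adaptor Sav1 activate Lats1 and Lats2, which phosphorylate Yap1 and keep it in the cytoplasm. Unphosphorylated Yap1 enters the nucleus, binds the TEAD factors and turns on genes such as Ctgf, Cyr61, Ankrd1 and Amotl2. In liver the pathway is known for its control of organ size and of the choice between hepatocyte and biliary fates. Since Yap1 is controlled mainly by phosphorylation and location, RNA levels of Yap1 do not measure its activity. The targets are also read in stellate, mesothelial and endothelial cells.

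TEAD factors bind the letters GGAATG, or CATTCC on the other strand, and the promoter windows of the genes were searched for these letters on both strands. The RefSeq windows (GRCm38.p6) run from 250 bases before to 50 bases after an annotated start and were held for 6 of the 8 genes, all but Ctgf and Tead1. They are shown because the list joins a factor with genes it is known to act on. Of 32851 windows of all genes, 14.7% held the letters, and a match is a description of the sequence only. The window of Ankrd1 held 2 matches, that of Cyr61 (RefSeq name Ccn1) 1, and that of Amotl2 1, all upstream of the start. The 250 bases before the start are printed for Cyr61 and Ankrd1, 5′ to 3′ on the gene's strand, with the matched letters in capitals, and the match of Amotl2 is shown after them with the bases around it.
Cyr61, chr3:145649986-145650235, minus strand: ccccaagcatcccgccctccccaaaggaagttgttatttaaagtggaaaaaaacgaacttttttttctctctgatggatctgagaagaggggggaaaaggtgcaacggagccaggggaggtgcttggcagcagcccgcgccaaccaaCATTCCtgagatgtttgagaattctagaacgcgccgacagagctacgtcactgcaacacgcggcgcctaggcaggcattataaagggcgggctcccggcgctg
Ankrd1, chr19:36119845-36120094, minus strand: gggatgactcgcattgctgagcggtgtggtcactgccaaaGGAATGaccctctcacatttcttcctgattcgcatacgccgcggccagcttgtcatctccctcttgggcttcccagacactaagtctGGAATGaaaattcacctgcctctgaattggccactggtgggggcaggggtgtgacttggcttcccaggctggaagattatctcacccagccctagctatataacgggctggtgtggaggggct

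Matches were not particular to the targets. Yap1 itself held 1 and the first of the 2 Lats2 windows held 1, while Tead2 and the second Lats2 window held none. The 30 bases around these matches are shown for comparison, again with the matched letters in capitals. The Amotl2 match began 65 bases before the start, the Yap1 match 141 bases before it, and the Lats2 match at base 5 of the transcript.
Amotl2, chr9:102717727-102717756, plus strand: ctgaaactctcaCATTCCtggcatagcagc
Yap1, chr9:8004720-8004749, minus strand: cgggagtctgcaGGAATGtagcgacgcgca
Lats2, chr14:57746102-57746131, minus strand: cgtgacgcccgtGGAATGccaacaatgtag

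All levels below are log2(Cy5/Cy3), the stage against the adult reference, after background correction and loess normalization within each array. A gene with several probes is represented by its brightest probe. Changes were tested in 1 limma fit of the 11 arrays, with p-values adjusted over 16708 genes by the Benjamini-Hochberg method and a threshold of 0.05, and every adjusted p below is from that fit unless another is named. The labels call the arrays biological replicates and do not say that each came from its own animal, so the p-values measure the spread between these arrays. An offset of 50 in the background correction pulls the ratios of dim probes towards 0.

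**Figure D1:**
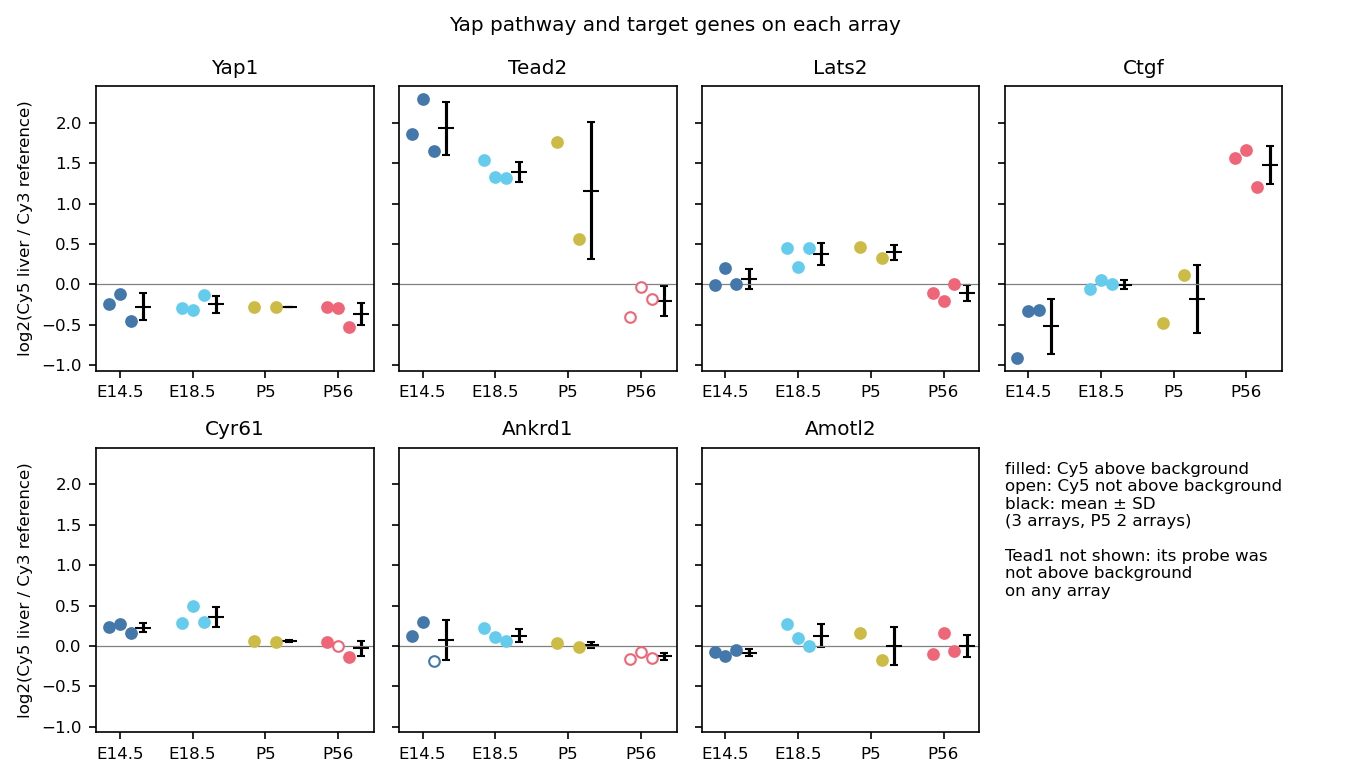
Log2 ratio of stage liver (Cy5) over adult reference (Cy3) of 7 Yap pathway and target genes, 1 point per array, by stage, with the mean ± SD in black and open points where Cy5 was not above background. Ctgf sits between 1.21 and 1.66 on the P56 arrays and at or below 0.11 on all others, Tead2 falls from 1.65 or more at E14.5 to below 0 at P56, and Yap1 stays between -0.53 and -0.12.

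The coactivator Yap1 was not called at any step in the main fit. Its probe (A_51_P152946, chr9:7956436-7956495, minus strand, mm7 as in the array files) gave -0.25, -0.12 and -0.46 on the E14.5 arrays, -0.30, -0.32 and -0.13 at E18.5, -0.28 on both P5 arrays, and -0.28, -0.30 and -0.53 at P56. All 4 stages overlapped. The stage means ran in the order E18.5, E14.5, P5 and P56, from -0.25 to -0.37, and no neighbours in that order differed beyond their spread. The change from E14.5 to E18.5 was 0.03, with a 95% interval from -0.22 to 0.27, and that from E18.5 to P56 was -0.12, from -0.36 to 0.12. These intervals leave room for moderate changes in either direction. With median centring in place of loess, an alternative in which the median of all genes at P56 moved down by 0.33 to 0.47, Yap1 was called lower at P56 than at each other stage, by 0.58 to 0.67. The shift of all genes made up the larger part of these values.

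Of the TEAD factors, which bring Yap1 to DNA, Tead2 was measured and Tead1 was not. Tead2 (A_52_P39546, chr7:41409172-41409231, plus strand) gave 1.86, 2.30 and 1.65 at E14.5, 1.54, 1.33 and 1.31 at E18.5, 1.76 and 0.56 on the P5 pair, and -0.41, -0.03 and -0.18 at P56. Embryonic liver thus lay above the adult reference on all 6 arrays, and the P56 arrays lay below every earlier array. As ratios the E14.5, E18.5 and P5 means were 4.41-fold, 3.03-fold and 2.58-fold above that of P56. In no P56 array was the Cy5 spot above background, so the P56 level has only an upper limit. In the Cy5 channel alone, normalized between arrays and open to dye bias, Tead2 was at least 4.84-fold higher at E14.5, 3.23-fold at E18.5 and 2.92-fold at P5 than at P56. These are limits for that channel and not for the ratio, since the Cy3 signal of this probe also went from 403 to 584 at E14.5 down to 164 to 207 at P56. The fall from E18.5 to P56 had an adjusted p of 0.00018, and that from P5 to P56 of 0.0023. The second Tead2 probe (A_51_P227739, chr7:41407970-41408029), dimmer and not overlapping the first, gave 0.58, 0.81 and 0.56 at E14.5, 0.32, 0.27 and 0.28 at E18.5, 0.24 and 0.13 on the P5 pair, and -0.16, -0.16 and -0.07 at P56. Its P56 ratio was lower than that of E14.5 by 0.78, of E18.5 by 0.42 and of P5 by 0.32, with adjusted p over probes of 1.0e-05, 0.0017 and 0.026. In Cy5 alone the signals were at least 1.82-fold, 1.36-fold and 1.30-fold higher than at P56.

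The step from E14.5 to E18.5 was less settled for Tead2. Its arrays did not overlap, and the bright probe changed by -0.54 ± 0.256 (SE) with an adjusted p of 0.10, which does not pass. It was called with the processed signals, without background subtraction, with Cy5 alone, with the mean of all kept probes, with the authors' table, with only the 2 stages compared, with array weights and without P5 replicate 2 or 3 (adjusted p 0.0082 to 0.040). The dim probe changed by -0.36 ± 0.0915, adjusted p 0.0073 over all probes. Without either P5 array the bright probe's change was called as well (adjusted p 0.014). Between E14.5 and P5 the bright probe changed by -0.77 (adjusted p 0.042), but its arrays overlapped: P5 replicate 2 lay at 1.76, within the E14.5 range, and replicate 3 at 0.56. Without P5 replicate 3 this change was -0.17 (adjusted p 0.58), and the call was also lost without E14.5 replicate 1 or 2, any E18.5 array or P56 replicate 3. Between E18.5 and P5 it was not called, except without P5 replicate 2, where it was -0.84 (adjusted p 0.021). The Tead1 probe (A_51_P422603, chr7:108815507-108815566, plus strand) was not above background in either channel of any array. Its Cy5 processed signals were 11.5 to 22.8, so nothing is said of its level at any stage.

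**Figure D2:**
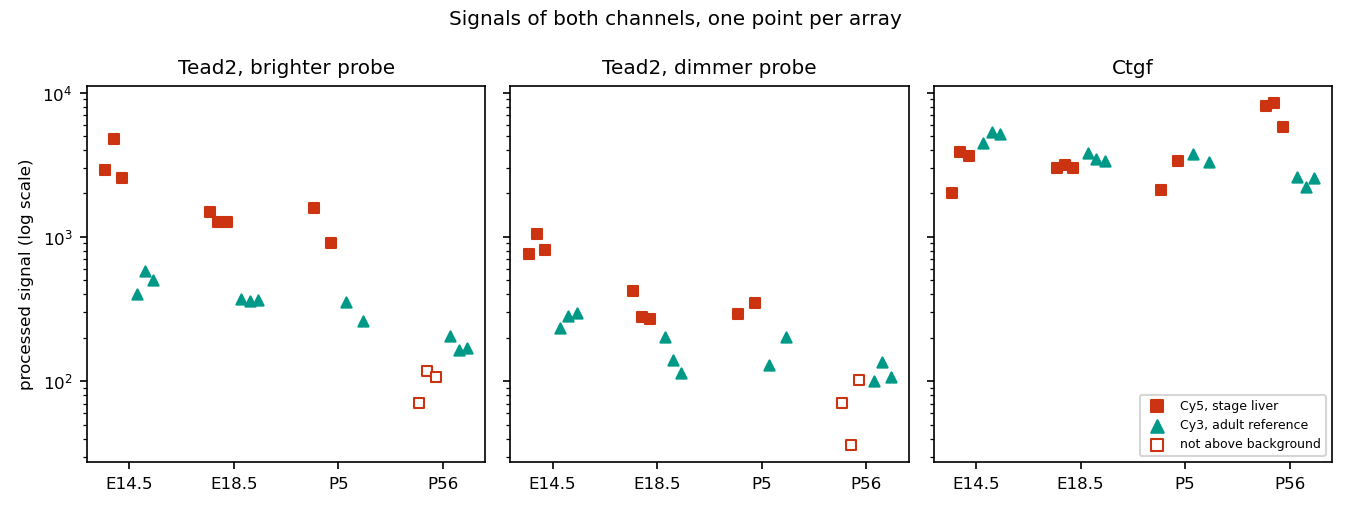
Processed signal on a log scale of both channels, 1 point per array, for both Tead2 probes and for Ctgf, with squares for stage liver (Cy5), triangles for the adult reference (Cy3) and open squares where Cy5 was not above background. Tead2 runs from 2562 to 4749 at E14.5 and from 70.5 to 117 at P56 on the brighter probe, while Ctgf runs from 2002 to 3884 at E14.5 and from 5801 to 8445 at P56.

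Lats2, the kinase that phosphorylates Yap1, was highest at E18.5 and P5 and lower at the other stages. The brightest of its probes (A_52_P315345, chr14:52557891-52557950, minus strand) gave -0.01, 0.21 and 0.01 at E14.5, 0.45, 0.22 and 0.45 at E18.5, 0.46 and 0.33 on the P5 pair, and -0.11, -0.21 and close to 0 at P56. The arrays of E14.5 and E18.5 just failed to touch, at 0.21 and 0.22, and so did not overlap. Lats2 rose by 0.31 ± 0.105 from E14.5 to E18.5 (adjusted p 0.031), did not change measurably to P5 (0.02, interval from -0.23 to 0.28), and fell by 0.50 from P5 to P56 (adjusted p 0.0044) and by 0.48 from E18.5 to P56 (adjusted p 0.0017). The means of the E14.5 and P56 arrays, 0.07 and -0.11, did not differ beyond their spread (adjusted p 0.15). The rise was 0.26 to 0.28 and not called without E14.5 replicate 1 or 3 or without E18.5 replicate 1 or 3, and it was 0.04 in the authors' table. The rise from E14.5 to P5, 0.33 (adjusted p 0.037), was lost without E14.5 replicate 1 or 3 or without either P5 array.

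The other Lats2 probes were less bright. A_51_P331525 (chr14:52557919-52557978) overlaps the first and is not an independent measure. It gave 0.32, 0.45 and 0.36 at E14.5, 0.81 on all 3 E18.5 arrays, 0.91 and 0.26 on the P5 pair, and 0.28, -0.12 and -0.08 at P56. It rose by 0.44 from E14.5 to E18.5 (adjusted p over probes 0.036) and fell by 0.79 from E18.5 to P56 (adjusted p 0.00076). A_51_P133349 (chr14:52559057-52559116), at Cy5 signals of 98.8 to 175 before P56, changed by -0.07 from E14.5 to E18.5 (adjusted p 0.61). At P56 it was not above background on any array, with signals of 24.7 to 43.2, so its change there has no measured size. In Cy5 alone it was at least 1.12-fold higher at E18.5 (adjusted p of the ratio over probes 0.65, not called). A_52_P425064 (chr14:52590323-52590382) was above background in Cy5 on 5 of 11 arrays and was left out.

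Ctgf, a secreted matrix protein and a widely used Yap target, was the 1 gene of the 7 called higher at P56. Its probe (A_51_P157042, chr10:24349402-24349461, plus strand) gave -0.91, -0.33 and -0.31 at E14.5, -0.06, 0.05 and close to 0 at E18.5, -0.48 and 0.11 on the P5 pair, and 1.56, 1.66 and 1.21 at P56. The 3 P56 arrays lay clear of all 8 earlier arrays, and their mean stood 2.79-fold above the adult reference. Ctgf rose by 0.52 ± 0.189 from E14.5 to E18.5 (adjusted p 0.041). It was not called between E18.5 and P5 and rose 3.16-fold from P5 to P56 (1.66 ± 0.211, adjusted p 6.9e-05). From E18.5 to P56 the rise was 2.79-fold (adjusted p 2.9e-05) and from E14.5 to P56 4.00-fold (adjusted p 1.6e-06). The early step depended on single arrays. Without E14.5 replicate 1, at -0.91, it was 0.32 (adjusted p 0.18), and without any one E18.5 array it was 0.49 to 0.54 and also not called. Between E14.5 and P5 Ctgf was called only without P5 replicate 2 (0.63, adjusted p 0.041). The Cy3 signal of the reference RNA, which is the same on all arrays, was 4438 to 5345 at E14.5 and 2229 to 2579 at P56, so the ratio rather than the Cy5 signal alone carries the comparison.

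The other secreted target, Cyr61, went the other way from Ctgf at P56. Its probe (A_51_P252859, chr3:145544387-145544446, minus strand) gave 0.23, 0.27 and 0.16 at E14.5, 0.28, 0.50 and 0.30 at E18.5, 0.07 and 0.05 on the P5 pair, and 0.05, close to 0 and -0.14 at P56, where 1 of 3 arrays was not above background. The E18.5 arrays were the highest and the P56 arrays the lowest. Cyr61 fell by 0.39 ± 0.0935 from E18.5 to P56 (adjusted p 0.0032) and by 0.25 from E14.5 to P56 (adjusted p 0.029). The second of these was lost without E14.5 replicate 1 or 2 or P56 replicate 3, with values from -0.25 to -0.20, and with scan as a random block (adjusted p 0.061). Between E18.5 and P5 the arrays did not overlap, but a change of -0.30 had an adjusted p of 0.082.

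Ankrd1, a muscle-related ankyrin repeat protein, was near the limit of detection. Its probe (A_52_P120803, chr19:35813004-35813063, minus strand) gave 0.12, 0.30 and -0.19 at E14.5, 0.22, 0.11 and 0.05 at E18.5, 0.04 and -0.02 on the P5 pair, and -0.16, -0.08 and -0.15 at P56. The P56 arrays, with Cy5 signals of 31.2 to 40.5, were not above background, and E18.5 liver was at least 1.21-fold higher in Cy5 alone (adjusted p of the ratio 0.073, not called). With the scanner software's processed signals, which carry no offset, the change from E18.5 to P56 was -1.50 (adjusted p 0.012), and it was -0.26 and called without E14.5 replicate 2 or 3. It was also called with the authors' table (-1.68, adjusted p 0.034), with Cy5 alone, with only the 2 stages compared and with the methods' t-test. Against E14.5, P56 was called lower without E14.5 replicate 3 (-0.34, adjusted p 0.014). That change was also called with the processed signals (-1.23), the authors' table (-1.54) and Cy5 alone (-0.34). Amotl2, an angiomotin-family scaffold that binds Yap1 and is itself a target, was not called at any step. With median centring it was called lower at P56, by -0.73 against E18.5 (adjusted p 0.00012) and -0.56 against P5 (adjusted p 0.0024). Against E14.5 the value with median centring was -0.45 (adjusted p 0.0034). Its probe (A_51_P348804, chr9:102424871-102424931, plus strand) gave -0.08, -0.13 and -0.05 at E14.5, 0.28, 0.10 and -0.01 at E18.5, 0.16 and -0.17 on the P5 pair, and -0.10, 0.16 and -0.07 at P56. The E14.5 arrays lay just below the E18.5 arrays, and the change of 0.21 had an interval from -0.05 to 0.46.

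Read by comparison, 2 of the 7 measured genes were called from E14.5 to E18.5, Lats2 and Ctgf, both higher, where 47.3% of all 16708 genes were called, 24.6% higher and 22.8% lower. Between E18.5 and P5, where 13.7% of all genes were called, 7.32% higher and 6.4% lower, limma called 0 of 7. At an unadjusted p under 0.05 it was 1, Cyr61, where 4856 of 16708 genes passed. The methods' t-test gave 1 unadjusted and 0 adjusted, where 3466 and 61 of all genes passed. From P5 to P56, 1 gene rose (Ctgf) and 2 fell (Tead2 and Lats2), where 45.6% of all genes were called, 20.9% higher and 24.7% lower. From E18.5 to P56, 1 rose and 3 fell (Tead2, Lats2 and Cyr61), where 64.7% were called, 31.2% higher and 33.6% lower. From E14.5 to P5 the count was 1 higher and 1 lower, where 49.0% were called, 24.9% higher and 24.1% lower. From E14.5 to P56 it was 1 higher and 2 lower, where 70.9% were called, 36.1% higher and 34.7% lower. In no comparison was the share of the 7 genes called above that of all genes, so the counts single out no step for the list. These comparisons share arrays and are not separate evidence. With median centring, 14.9% of all calls from E18.5 to P56 were higher rather than 48.1%, from P5 to P56 6.83% rather than 45.8%, and from E14.5 to P56 22.9% rather than 51.0%. Ctgf was still called higher in these 3 comparisons, but by 0.63, 0.79 and 1.15 in the same order.

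**Figure D3:**
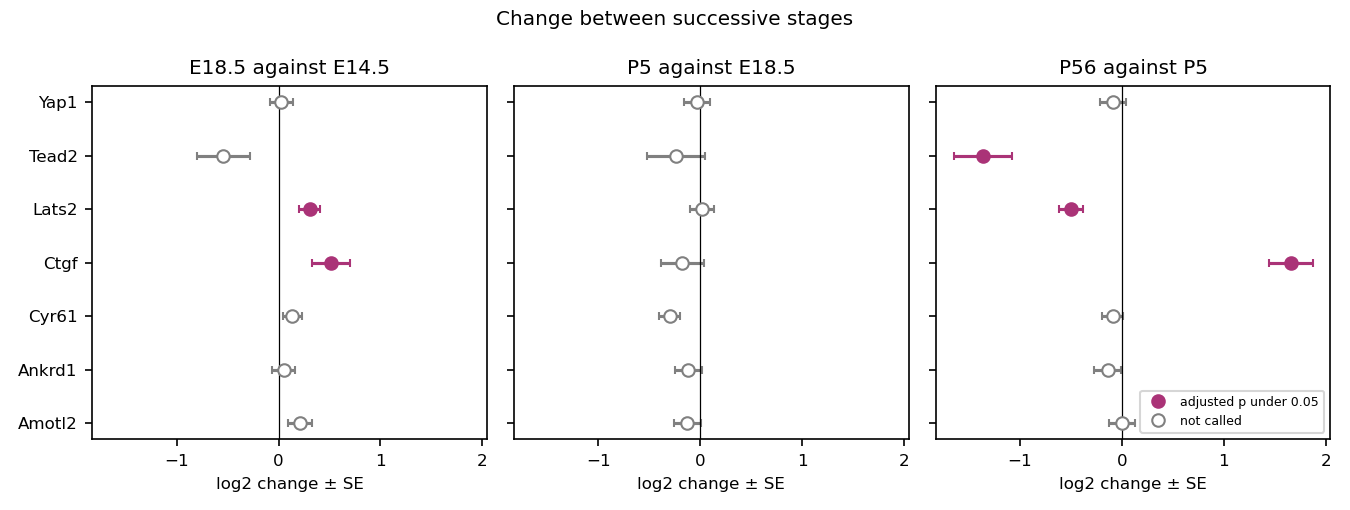
Log2 change ± SE of the 7 measured genes between successive stages, filled where the adjusted p was under 0.05. Ctgf rises by 1.66 and Tead2 falls by 1.37 from P5 to P56, while no gene is filled between E18.5 and P5.

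The arrays were scanned in 4 groups, told apart by the scan time in the file headers. The headers repeat 1 slide number over 3 of these scans, and the slide position of P5 replicate 3 is also that of E18.5 replicate 2, so slide was not used as a batch. E14.5 shared a scan with E18.5 replicate 1, and P56 shared one with P5 replicate 3. Within these scans the direction of each called change was kept. Ctgf differed by 0.46 and Lats2 by 0.39 between E18.5 and E14.5, but with scan as a fixed block neither was called (adjusted p 0.18 and 0.073), and with scan as a random block Lats2 was (adjusted p 0.036) and Ctgf was not (adjusted p 0.064). Within the shared scan of P5 and P56, Ctgf differed by 1.37 (adjusted p 0.0023 with scan as a block) and Tead2 by -0.77 (adjusted p 0.031), while Lats2 differed by -0.44 and was no longer called (adjusted p 0.052). For Tead2 the difference was smaller within the scan than over all arrays, -0.77 against -1.37. No scan held both E18.5 and P5, E18.5 and P56, or E14.5 and a postnatal stage, so in these comparisons scan and stage cannot be told apart.

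The rest of the pathway was read from lists of 6 core kinases and adaptors, 15 upstream regulators, 10 partners of the coactivator and TEAD factors, and 17 other Yap targets. All 4 measured core genes fell from E18.5 to P56, with a median of -0.55 beside -0.01 for all genes, of which 33.6% fell. With the authors' values 2 of the 4 were called lower, where 4262 of 28050 genes were. With the processed signals or Cy5 alone 3 of the 4 were called lower, where 5821 and 5241 of 16708 genes were. Stk3, the Mst2 kinase, gave 1.06 to 1.09 at E14.5, 0.39 to 0.66 on the E18.5 arrays and -0.43 to -0.20 on those of P56, and fell by 0.58 (adjusted p 0.0013) and then by 0.84 (adjusted p 4.8e-05). In the authors' table the first of these steps had the opposite sign. Sav1, the adaptor of that kinase, fell by 0.36 (adjusted p 0.029) and 0.63 (adjusted p 0.00076), the first of which was lost with median centring and without E14.5 replicate 1 or 2 or E18.5 replicate 1 or 3. The second was not called with the authors' values. From E14.5 to E18.5, 2 of the 4 fell, where 22.8% of all genes did, and the others were not called. Lats1 did not pass the filter, and Mob1a was not matched on the array.

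Of 14 measured upstream regulators, 4 rose and 3 fell from E14.5 to E18.5, close to the shares of all genes (24.6% and 22.8%). With the authors' values 2 rose and 0 fell, where 3065 and 1733 of 28050 genes did. From E18.5 to P56, 3 rose and 9 fell, where 31.2% and 33.6% of all genes did, with a median of -0.53. With median centring 1 rose and 10 fell, where 1577 and 8988 of 16708 genes did. With the authors' values 1 rose and 5 fell, where 4242 and 4262 of 28050 genes did. Crb3, an apical polarity protein of epithelia, gave -2.28 to -1.83 on the E14.5 arrays, -0.48 to -0.30 on those of E18.5 and 0.69 to 1.42 on those of P56, with rises of 1.72 (adjusted p 2.2e-05) and 1.43 (adjusted p 5.4e-05), the second of which was 0.52 with median centring (adjusted p 0.019). Wwc1 (Kibra), an activator of the kinase core, rose by 1.03 from E14.5 to E18.5 (adjusted p 3.0e-05). Llgl1, a polarity protein, fell by 0.45 in that step (adjusted p 0.015), not called without E14.5 replicate 2 or E18.5 replicate 1. The TAO kinases, which act above the Mst kinases, parted at P56. Taok3 fell by 1.59 (adjusted p 5.8e-06) and Taok1 by 1.20 (adjusted p 5.7e-06), whereas Taok2 fell by 0.41 from E14.5 to E18.5 (adjusted p 0.013, not called without E14.5 replicate 1 or E18.5 replicate 3) and rose by 0.94 from E18.5 to P56 (adjusted p 2.7e-05). With median centring Taok2 changed by 0.10 at P56 and was not called. With the authors' values neither change of Taok2 was called, nor was that of Llgl1.

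Of the 8 measured partners, 1 fell from E14.5 to E18.5, the LIM protein Limd1 (-0.42, adjusted p 0.0024), which was not called with the authors' values. From E18.5 to P56, 5 fell and 1 rose, where 33.6% and 31.2% of all genes did. With median centring 4 fell and 0 rose, where 8988 and 1577 of 16708 genes did. With the authors' values 2 fell and 0 rose, where 4262 and 4242 of 28050 genes did. Amot, the angiomotin that binds Yap1 at cell junctions, gave 1.11 to 1.42 at E18.5 and -0.74 to -0.31 at P56 and fell by 1.72 (adjusted p 1.0e-06). This fall was not called with the authors' values. Wtip, a LIM protein that binds Lats kinases, fell by 1.04 (adjusted p 1.9e-05). Wwtr1 (Taz), the paralog of Yap1, rose by 0.55 (adjusted p 0.0046), but with median centring its value was -0.34 and not called. It was not called with the authors' values either. Tead3 and Tead4, like Tead1, did not pass the filter, so Tead2 was the TEAD factor that could be followed.

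Of the 14 other measured targets, 6 rose and 3 fell between E14.5 and E18.5, where 24.6% and 22.8% of all genes did. Against E18.5, the P56 livers had 3 higher and 9 lower, where 31.2% and 33.6% of all genes were, with a median of -0.64. With median centring 0 were higher and 12 lower, where 1577 and 8988 of 16708 genes were. Fer1l3 (myoferlin) gave -2.51 and -2.50 at E14.5 with 1 array without a value, -0.41 to 0.02 on those of E18.5 and -2.47 to -1.67 at P56, so that it rose by 2.27 (adjusted p 8.7e-06) and then fell by 1.87 (adjusted p 8.7e-06). Nt5e, the surface enzyme CD73, rose by 1.24 from E14.5 to E18.5 (adjusted p 0.0083). Tgfb2 and Gadd45a fell by 0.66 (adjusted p 0.0046) and 0.49 (adjusted p 0.0040) in that step. Nt5e and Tgfb2 were not called with scan as a fixed block, and Nt5e and Gadd45a were not called with the authors' values. Birc5 (survivin), which is also a gene of dividing cells, fell by 5.33 from E18.5 to P56 (adjusted p 4.1e-10). Nuak2 rose by 0.68 (adjusted p 0.0024) and F3, tissue factor, by 0.39 (adjusted p 0.028). With median centring Nuak2 changed by -0.10 and F3 by 0.16, neither called, and F3 was not called without E18.5 replicate 1 or 3 or P56 replicate 1 or 2.

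**Figure D4:**
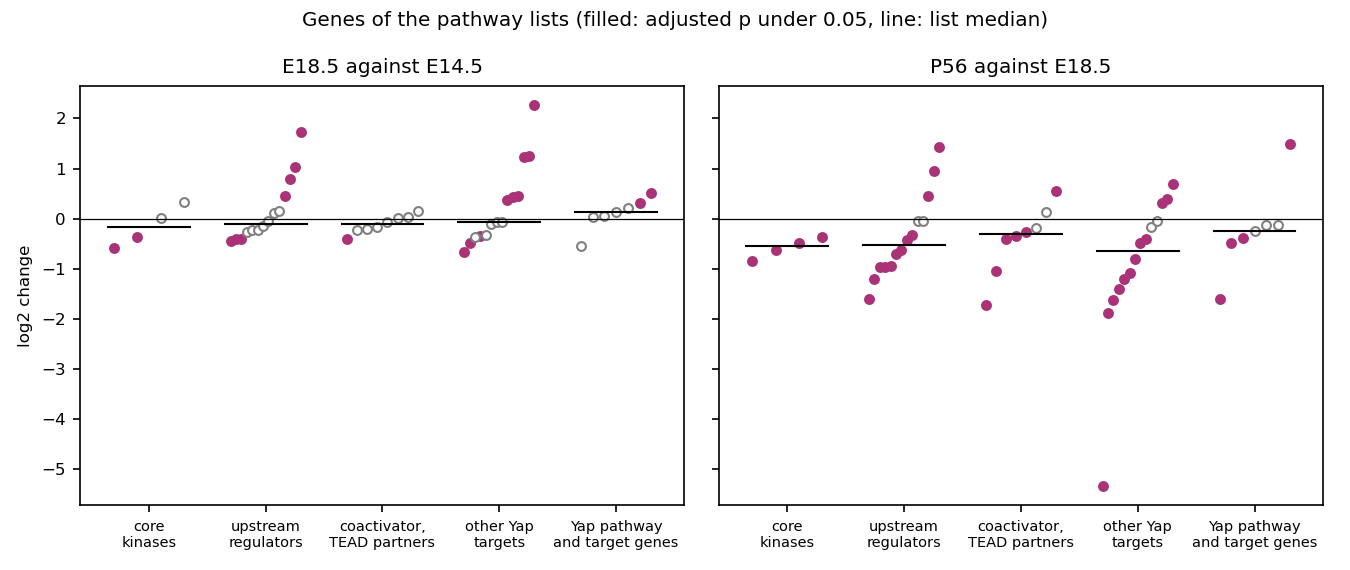
Log2 change of each measured gene of the pathway lists and of the 7 Yap pathway and target genes, filled where the adjusted p was under 0.05, with a line at each median. From E18.5 to P56 the medians lie between -0.64 and -0.26, with Ctgf (1.48) and Crb3 (1.43) highest, which were 0.63 and 0.52 with median centring.

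Cell type markers moved over the same stages. Stellate and fibroblast markers averaged 0.26, 0.24, 0.16 and -0.65 over the successive stages, with arrays of -0.77 to -0.58 at P56. From E18.5 to P56 single genes of this list changed by -3.45 to 1.58. Of 12, 1 was called higher and 7 lower, where 31.2% and 33.6% of all genes were. Mesothelial markers averaged 0.27, 0.59, 0.29 and -0.21, endothelial markers -0.69, 0.03, 0.28 and -0.39, and biliary markers -0.84, 0.24, 0.07 and -0.35. Macrophage markers averaged -2.96, -1.45, -1.27 and -2.24. In their means, Lats2 and the mesothelial, endothelial, biliary and macrophage lists were each higher at E18.5 and P5 than at E14.5 and P56. So were the upstream regulators, the other Yap targets and the immediate early genes. Medians over genes did not all follow these means. For mesothelial markers the median change from E14.5 was -0.02 to E18.5 and -0.21 to P5, with single genes up to 2.81 and 2.66. For upstream regulators the medians were -0.10 and -0.03, and for the other Yap targets -0.07 and -0.05. The endothelial, biliary, macrophage and immediate early lists had medians above 0 in both comparisons. On all P56 arrays, 10 of 12 stellate, 2 of 7 mesothelial, 7 of 10 endothelial, 3 of 7 biliary and 5 of 10 erythroid markers were above background. Detection at P56 was lower over the whole array, with 16790 to 23079 spots above background in Cy5 against 24415 to 25718 at E18.5. Erythroid markers averaged 2.61 at P5 and -0.14 at P56, and mature hepatocyte markers -0.37 and -0.59. Tead2 and the stellate, mesothelial, erythroid and hepatoblast lists were each lowest at P56. So were the core kinases, the upstream regulators, the partners and the other Yap targets, at -0.10, -0.31, -0.24 and -0.58. Of the 12 immediate early genes, which respond quickly to tissue handling, as Cyr61 and Ctgf can, 6 rose and 0 fell from E14.5 to E18.5, where 24.6% and 22.8% of all genes did. From E18.5 to P56, 1 rose and 4 fell, where 31.2% and 33.6% of all genes did. With median centring 0 rose and 10 fell, where 1577 and 8988 of 16708 genes did. The part of cell mixture and of tissue handling in the changes of the Yap genes was not tested.

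**Figure D5:**
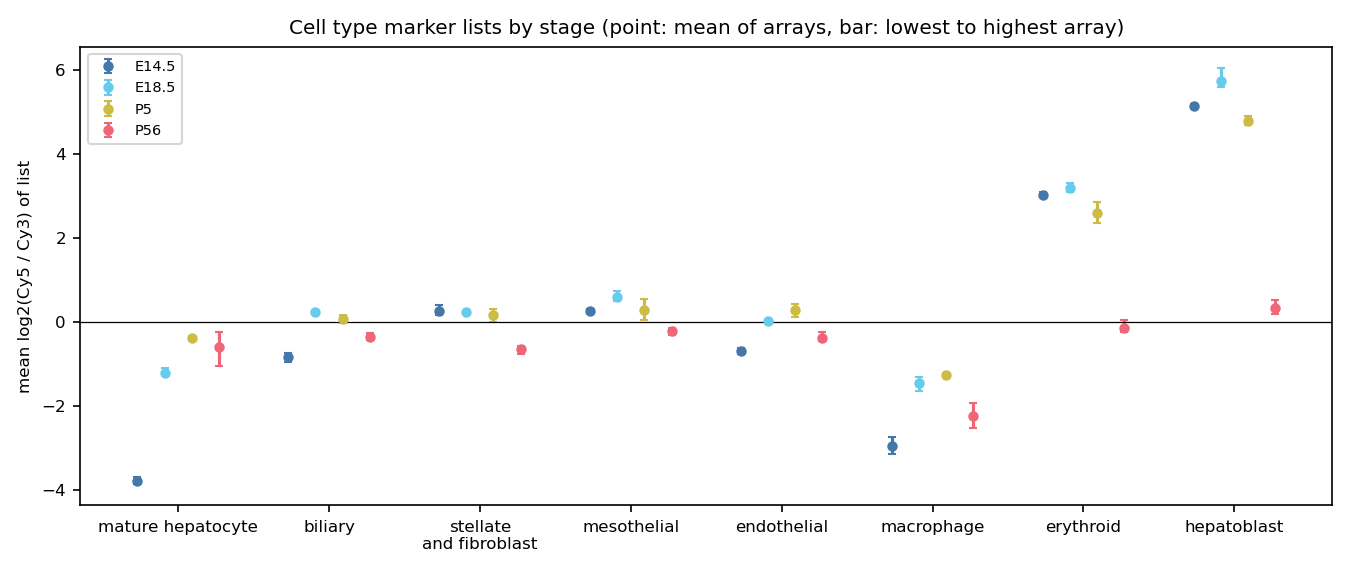
Mean log2 ratio of each cell type marker list at each stage, as the mean of its arrays with bars from the lowest to the highest array. Erythroid markers lie between 2.35 and 3.32 up to P5 and between -0.23 and 0.05 at P56, and mature hepatocyte markers rise from -3.80 at E14.5.

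The genes whose log2 ratios ran most like each Yap gene over the 11 arrays were sought among 13167 tested genes of the RefSeq table. For Tead2 they were Col5a2, a fibrillar collagen chain (Pearson r 0.990), and Abi2 (0.986). Col5a2 averaged 1.43, 1.04, 0.76 and -0.38 over the 4 stages. Ctgf ran most like Tradd (0.978) and B830017H08Rik (0.974). Lats2 ran most like Adcy6 (0.939) and Cd82 (0.938), Cyr61 like Bin1 (0.922) and Casc3 (0.919), Ankrd1 like Hs3st1 (0.929) and Hecw2 (0.891), and Amotl2 like E330021D16Rik (0.871) and Nos3 (0.865). Yap1 ran most like Jun (0.864) and Prx (0.802). Yap1 and Amotl2 varied little between stages, so their values rest mostly on differences between arrays. These are the highest of many correlations, over arrays that share stage and reference, and are given as descriptions.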

How the data were processed

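RNA of normal mouse liver at 4 stages was measured against an adult liver reference on 11 Agilent arrays, and samples were grouped by their labels. The authors deposited spot intensities of both channels read by Agilent Feature Extraction 9.5.1.1, beside the background around each spot and its flags. The deposited files also hold log10 ratios and processed signals from that software. A deposited table gives lowess-normalized log2 ratios averaged per gene by the authors, used as an alternative, as were the processed signals. Each array held 41174 distinct probes without controls. Spots above background in Cy5 numbered 16790 to 25718 per array, lowest at P56, and the number of arrays limits the precision.

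Intensities were corrected by normexp (offset 50) and normalized by loess within arrays, without control spots and spots flagged as outliers. A probe was kept when its Cy5 signal was above background throughout at least 1 stage, and the brightest kept probe stood for a gene. This left 16708 genes, 261 of them with a missing value, fitted as missing. Stages were compared in limma 3.58.1 (R 4.3.3; lmFit, eBayes) on all arrays together (Benjamini-Hochberg, 0.05). The scripts were tested on simulated data. Gene names are those of the array, and 13402 of those tested could be matched to RefSeq (GRCm38.p6). Figures were drawn with matplotlib 3.10.9.

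The 8 genes, the pathway and marker lists and the tests were chosen with earlier results of these data known. The genes named are the 8 with every probe, up to 2 higher and 2 lower genes of each pathway list with the largest called change at E18.5 against E14.5 and at P56 against E18.5, and the 2 genes most correlated with each. Afp, Dlk1 and Gpc3 were added after values were seen. Alternatives were other background corrections, normalizations, filters, probe rules and tests, the authors' table, array weights, blocks of replicate number or of scan, and each array left out.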

Additional observations from a re-analysis of the deposited data

How the results depend on the processing

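At P56, the rise of Ctgf and the fall of Tead2 against E18.5 and against E14.5 were called under every alternative run, and so was the fall of Cyr61 against E18.5 except with an absolute log2 change of at least 1. From E14.5 to E18.5, 2 genes (Lats2 and Ctgf) were called, but 3, with Tead2 lower, without background subtraction, with only the 2 stages compared and with array weights, 1 (Tead2) with the processed signals and with the authors' table, 1 (Lats2) with median centring, with no filter on dim probes and with scan as a random block, and 0 with the replicate block, with scan as a fixed block, with the methods' t-test and with an absolute log2 change of at least 1. For P5 against E14.5, 2 were called, but 1 without background subtraction, with the Cy5 channel alone, with no filter on dim probes, with the mean of all kept probes, with array weights and with the replicate block, and 0 with the processed signals, median centring, the authors' table, only the 2 stages compared, scan as a random block, the methods' t-test and a log2 change of at least 1. For P56 against P5, 3 were called, but 6 with median centring and 0 with the methods' t-test. Of all 16708 genes, 7615 were called in the main fit, 9515 with median centring and 298 with that t-test. In that comparison Lats2 was also lost with scan as a fixed block and with an absolute log2 change of at least 1. For P56 against E18.5, 4 were called, but 6 with median centring and 2 with a log2 change of at least 1. It was 5 with the processed signals, Cy5 alone, only the 2 stages compared and the methods' t-test. Of all 16708 genes, 10818 were called in the main fit and 10565 with median centring. In the 4 settings with 5 called, all genes called ran from 9373 (the methods' t-test) to 11438 (the processed signals). With the authors' table Ankrd1 was called there in place of Lats2. For P56 against E14.5, 3 were called, but 5 with the processed signals and 6 with median centring. Of all 16708 genes, 11839 were called in the main fit, 12464 with the processed signals and 10682 with median centring. Ankrd1 was called as well with Cy5 alone and with the authors' table, and Lats2 with the mean of all kept probes. Cyr61 was lost with scan as a random block and with an absolute log2 change of at least 1. Leaving out 1 array at a time, the counts ran from 0 to 3 for E18.5 against E14.5, 0 to 2 for P5 against E14.5, 0 to 1 for P5 against E18.5, 2 to 4 for P56 against E14.5, 4 to 5 for P56 against E18.5 and 3 to 3 for P56 against P5. With median centring Amotl2 changed by -0.45 at P56 against E14.5 (adjusted p 0.0034) in place of 0.08, the single reversal. Replicate numbers did not pair the arrays, since 15 same-numbered pairs correlated at -0.30 to 0.19 with 1 over 0.1. The cause of these changes was not tested. In dim probes, such as Ankrd1 and Tead2 at P56, the offset limits the size of a change: Tead2 changed by -3.65 from E14.5 to P56 with the processed signals and by -2.14 with the offset.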
